A study of Homo sapiens with 5 samples.

Results

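NBEAL2 and its BEACH domain relatives were followed intron by intron in 5 libraries of polyA RNA from DLD-1, an established human colorectal adenocarcinoma line. The genes were NBEAL2, NBEAL1, LRBA, LYST, WDFY3 and NSMAF, and every intron listed under 1 of these 6 names was taken. This gave 71 different introns among the 34560 of the whole series, of which 46 belonged to NBEAL2, 15 to NSMAF, 6 to LRBA and 4 to WDFY3. NBEAL1 and LYST had no listed intron. The genes were chosen by NBEAL2's retention differences in these libraries, so its counts are a description and carry no test.

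The study asked which introns stay in polyadenylated RNA when the splicing factors WBP11 or SNW1 are missing. DLD-1 LacZeo cells received 100 nM WBP11 siRNA or 100 nM SNW1 siRNA for 72 h, and a library of the same cells with the treatment given as none served as the control of both. The file headers call that library control RNAi, and whether it received a non-targeting siRNA is not said in the labels. In a separate pair, both libraries are labelled DLD-1 LacZeo osTIR1, cells with a plant auxin receptor, and both had 500 µM auxin for 48 h. Per the series' design text, the depleted cells of that pair carried an AID-tagged WBP11 transgene, which auxin marks for degradation, in a background without endogenous WBP11. These are the WBP11 auxin cells, and the other library is the auxin control. No library of the tagged cells without auxin was analysed here, so loss of WBP11 cannot be told apart from other differences between the lines. Whether a line was 1 clone is not given in the sources used here. Each group had 1 library, so no difference below has a replicate check.

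BEACH domain proteins are very large scaffolds that combine the conserved BEACH domain, named after beige and Chediak-Higashi, with WD40 repeats, and they act in the traffic of vesicles, granules and lysosomes. NBEAL2 is needed for the alpha granules of platelets, and its loss causes gray platelet syndrome. LRBA protects the immune receptor CTLA4 from lysosomal breakdown, LYST is the lysosomal trafficking regulator mutated in Chediak-Higashi syndrome, WDFY3 (ALFY) is an adaptor of selective autophagy, and NSMAF (FAN) links a tumour necrosis factor receptor to neutral sphingomyelinase. The function of NBEAL1 is less well known.

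The genes differ widely in build. NBEAL2 (ENSG00000160796.15 in the files) lies on the plus strand of chromosome 3 from 46979683 to 47009703 (GRCh38), and its longest coding transcript in GENCODE release 29 has 53 introns with a median of 129 bp. Of these, 17 are at most 100 bp. LRBA and WDFY3 (both chromosome 4), NBEAL1 (chromosome 2), LYST (chromosome 1) and NSMAF have 30 to 67 introns with medians of 1168 to 4440 bp. Each of NBEAL1, LRBA, LYST and WDFY3 has 1 intron of at most 100 bp, and NSMAF has 4. The only other annotated gene that overlaps NBEAL2 is CCDC12, on the opposite strand, and of the NBEAL2 introns it reaches into intron 1 alone.

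The reference transcripts held the full sequence of 4 NBEAL2 introns, since another annotated transcript of the gene keeps each of them. They are the NBEAL2 introns whose sequence could be read, and their responses differed: introns 46 and 47 were higher in every depletion, intron 28 was higher after WBP11 RNAi and not in the WBP11 auxin cells, and intron 49, listed for auxin alone, stayed close to its control. Each is written 5′ to 3′ on the plus strand of GRCh38, and capitals mark the first stop codon in the reading frame of the upstream exon, where there is one.
Intron 28, chr3:47001180-47001278: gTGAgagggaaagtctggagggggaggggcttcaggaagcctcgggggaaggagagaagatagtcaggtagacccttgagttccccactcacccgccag
Intron 46, chr3:47007156-47007240: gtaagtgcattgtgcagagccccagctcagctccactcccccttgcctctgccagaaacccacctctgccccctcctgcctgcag
Intron 47, chr3:47007351-47007524: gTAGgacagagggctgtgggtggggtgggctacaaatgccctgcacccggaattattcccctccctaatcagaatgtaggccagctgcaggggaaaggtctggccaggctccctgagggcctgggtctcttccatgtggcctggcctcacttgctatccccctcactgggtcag
Intron 49, chr3:47007911-47008069: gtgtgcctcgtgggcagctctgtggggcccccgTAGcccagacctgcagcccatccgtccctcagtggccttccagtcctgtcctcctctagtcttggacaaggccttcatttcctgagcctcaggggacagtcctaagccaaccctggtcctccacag

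All 4 introns begin with gt and end with ag, and their GC content lay between 60.6% and 63.5%. Introns 28 and 47 have an in-frame stop codon from their base 2 on, directly behind the donor's first base. Intron 49 has its first at base 34. The 85 bp of intron 46 hold none, and its length is not a multiple of 3, so keeping it shifts the frame. On the intron side its donor reads gtaagt, the intron letters that pair best with U1 snRNA, and the other 3 introns depart from it there. The last 3 exon bases, also part of the donor site, read ttg at intron 46, cag at introns 28 and 49 and caa at intron 47. The 4 donors are not ranked here. In the last stretch before the acceptor (20 bases, from base 23 to base 4 before the end) the share of c and t was 85% in intron 46, 70% in introns 28 and 47 and 60% in intron 49. These are descriptions of 4 introns.

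Each value that follows is an intron retention ratio as deposited, the read depth over an intron divided by that depth plus the reads spliced at its ends, given in percent. An intron was tested when depth plus spliced reads reached 10 in both libraries, which every listed intron of the 6 genes did. It was called higher or lower, and is said to have risen or fallen, when the ratio differed by at least 10 percentage points. Intervals are 95% and cover counting error only. They treat depth plus spliced reads as independent counts, and reads are not independent molecules, so they are too narrow. NBEAL2 introns rested on a depth plus spliced reads of 50 to 208 in the control, 16.3 to 97.8 after WBP11 RNAi, 24.4 to 153 after SNW1 RNAi, 30 to 259 in the auxin control and 13 to 115 in the WBP11 auxin cells.

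The targets and the cell type came first. WBP11 had 12 spliced reads after WBP11 RNAi against 176 in the control at its only tested intron, and SNW1 had 31 after SNW1 RNAi against 401 at 2 introns. In the auxin pair, where the protein is the target, the only tested WBP11 intron had 103 spliced reads against 235. Of 11 fixed markers of colorectal epithelium, 4 or 5 had introns in each table, among them KRT18, KRT19, CDH1 and CDH17. None of 5 fibroblast markers did, of 5 leukocyte markers only CD68 did, in the RNAi tables, and of 4 platelet markers only PF4 did, in the auxin table. The tables list only introns retained at 1% or more in at least 1 of their libraries, so a gene without listed introns may still be expressed.

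NBEAL2 rose at 18 of 30 tested introns after WBP11 RNAi, at 20 of 37 after SNW1 RNAi and at 16 of 35 in the WBP11 auxin cells. Over all introns tested, 9.07% rose after WBP11 RNAi, 16.6% after SNW1 RNAi and 13.8% in the WBP11 auxin cells. The only fall was intron 37 after WBP11 RNAi, where 1.69% of all introns fell. No NBEAL2 intron fell after SNW1 RNAi or with auxin, against 0.359% and 1.37% of all introns. Retention was above control at 28 of 30, 37 of 37 and 32 of 35 NBEAL2 introns, against 59.6%, 91.3% and 72.8% of all introns. The median NBEAL2 intron gained 11.4, 10.6 and 8.46 points, against 0.756, 2.63 and 1.45 over all introns. The interval of the difference lay above 0 at 17, 19 and 14 of the rises, and rises of that kind made up 7.08%, 13.8% and 11.4% of all introns tested. Tested introns are not all introns of the gene: 7 of the 53 were in no table, and 10, 14 and 8 of those tested were below 1% in the control and so were listed through the depleted library, which fixed their direction. The authors' software put a warning on 14, 19 and 18 of the tested introns in at least 1 library. Most of these were for uneven coverage, and in the WBP11 auxin cells introns 16, 23, 31, 38 and 47 were marked as a minor isoform.

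**Figure D1:**
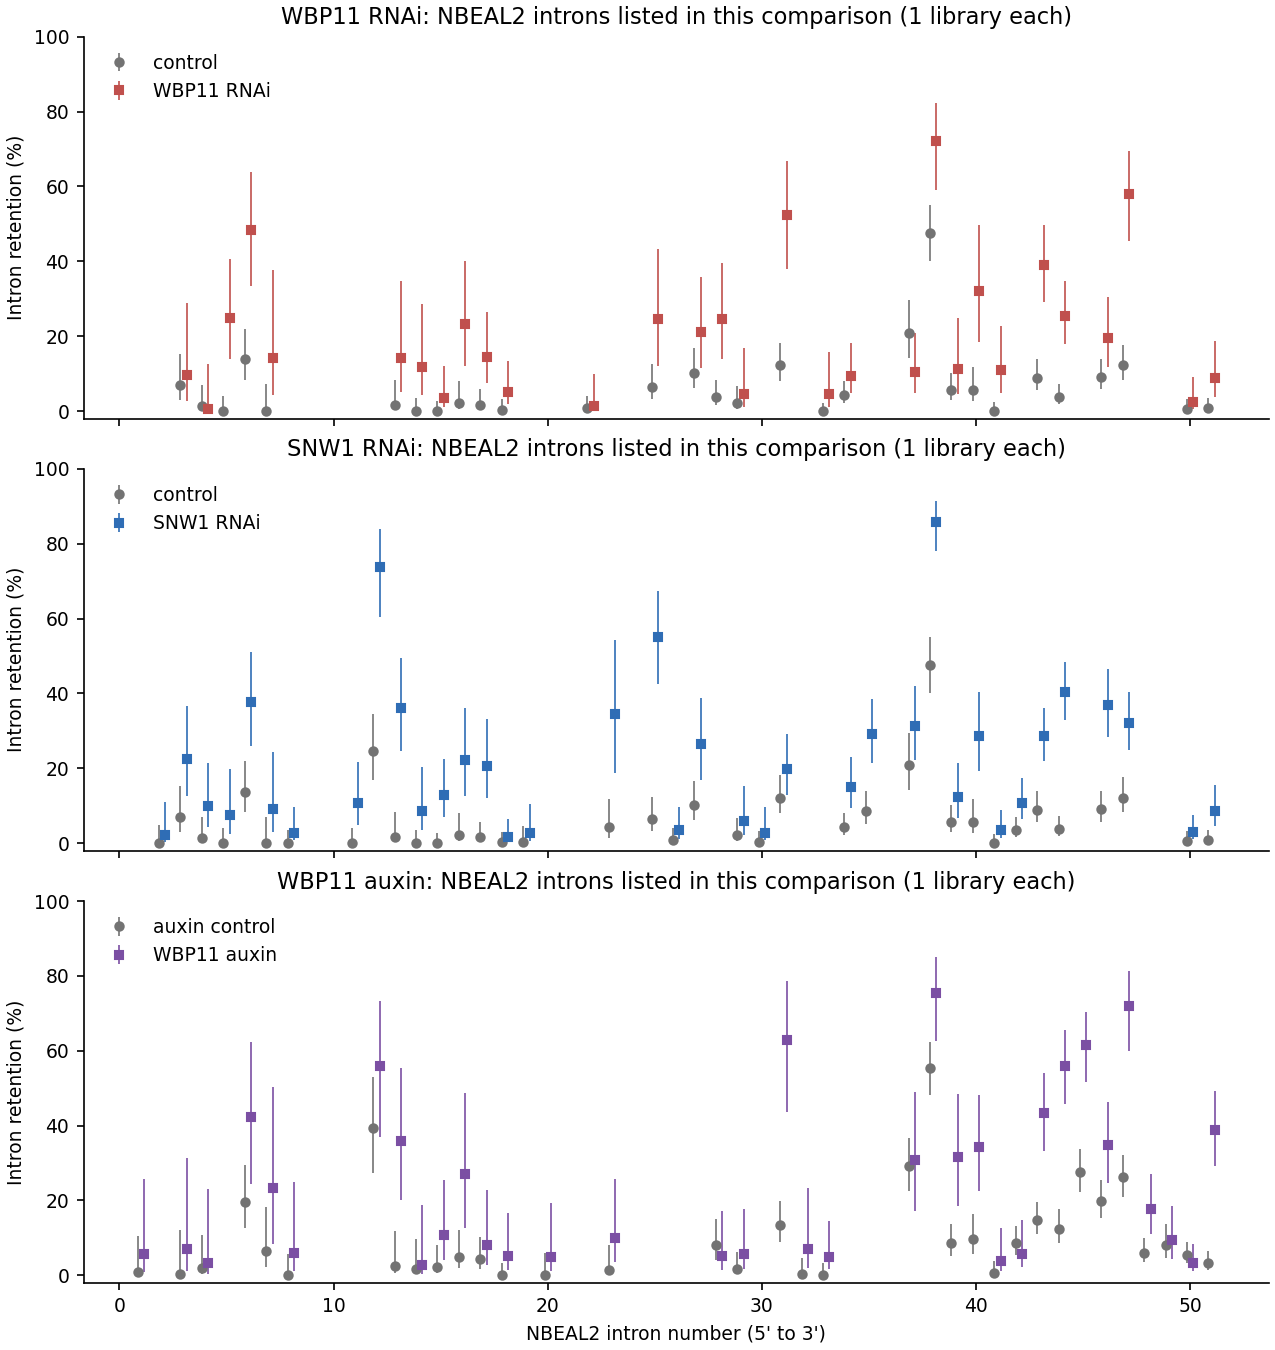
Retention of NBEAL2 introns in percent (y axis) against intron number from the 5′ end (x axis), with the control in grey circles and the depleted library in coloured squares, 1 library each, and Wilson 95% intervals as bars. Introns 6, 38, 43 and 47 stand above their control in all 3 panels, while introns 4, 18, 29 and 50 stay within 10 points in all of them.

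Of the 46 NBEAL2 introns, 23 were tested in every table, and 9 of these rose in every depletion: introns 6, 13, 16, 38, 40, 43, 44, 46 and 47. Of all 8601 introns tested in every table, 5.82% rose in every depletion, and the RNAi comparisons share their control. Intron 47 (174 bp) stood at 12.2% in the control, 57.9% after WBP11 RNAi and 32.2% after SNW1 RNAi, and at 26.2% in the auxin control and 71.9% in the WBP11 auxin cells. The differences were 45.7 points (95% interval 32 to 58), 20 points (10.9 to 29.2) and 45.7 points (32.4 to 56.6). Both WBP11 depletions were thus above the SNW1 library at this intron.

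Intron 44, with 70 bp the shortest of the gene (47006263 to 47006332), stood at 3.70% in the control, 25.4% after WBP11 RNAi, 40.5% after SNW1 RNAi, 12.4% in the auxin control and 55.8% in the WBP11 auxin cells. It rose by 21.7 (13.3 to 31.3), 36.8 (28.5 to 45) and 43.4 points (32 to 53.8). Its neighbour intron 43 (101 bp) went from 8.94% to 38.9% and 28.6% after WBP11 and SNW1 RNAi and from 14.8% to 43.4% with auxin. Introns 43 to 47 lie between 47006064 and 47007524 near the 3′ end, and each of them rose in every comparison that listed it. Intron 45 (616 bp) was listed for auxin alone and went from 27.6% to 61.4%.

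Intron 38 (381 bp) was the most retained NBEAL2 intron before any depletion, at 47.5% in the control and 55.4% in the auxin control. It reached 72.2% after WBP11 RNAi, 85.9% after SNW1 RNAi and 75.5% in the WBP11 auxin cells. Intron 6, the second longest listed (1625 bp), went from 13.8% to 48.5% and 37.7%, and from 19.7% to 42.2%. Intron 40 (167 bp) went from 5.71% to 32.1% and 28.7%, and from 9.71% to 34.3%. Intron 13 (80 bp) stood at 1.54% in the control, 14.3% after WBP11 RNAi and 36.1% after SNW1 RNAi, and went from 2.57% to 36% with auxin. Intron 16 (158 bp) gained 20 to 22.2 points in each comparison. Intron 46 gained 10.4, 28 and 14.9 points, the first of these the smallest called rise of the gene after WBP11 RNAi.

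Other introns rose in only some of the depletions, or were not listed in all of them. Intron 31 (82 bp) stood at 12.2% in the control, 52.5% after WBP11 RNAi and 19.9% after SNW1 RNAi, and at 13.4% in the auxin control against 62.8% in the WBP11 auxin cells. It was high in both WBP11 libraries, and its gain of 7.69 points after SNW1 RNAi was not called. Intron 25 (155 bp), not listed for auxin, was higher in the SNW1 library, with 6.38% in the control, 24.5% after WBP11 RNAi and 55.2% after SNW1 RNAi. Intron 51 (78 bp) rose with auxin alone, from 3.21% to 38.7% (35.5 points, 25.3 to 46.1), and gained 7.93 and 7.82 points in the RNAi comparisons. Intron 39 (84 bp) rose with auxin alone too, from 8.57% to 31.7%.

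After WBP11 RNAi, intron 5 (129 bp) went from 0.0442% to 24.9% and stood at 7.50% after SNW1 RNAi. Introns 7, 14 and 41 were at 0% in the control, which allows up to 6%, 2.88% and 2.03% at their 50, 104 and 148 reads, and stood at 14.1%, 11.9% and 10.9% after WBP11 RNAi. Intron 7 was called with auxin as well, from 6.54% to 23.2%, with an interval of the difference from -2.31 to 44.2 at a depleted depth plus spliced reads of 13. Intron 28 went from 3.65% to 24.5% after WBP11 RNAi, a rise of 20.8 points (9.30 to 35.9). In the WBP11 auxin cells the same intron was at 5.26% against 8.06%. Intron 17 went from 1.64% to 14.5% and 20.7% in the RNAi comparisons and from 4.41% to 8.22% with auxin. Intron 27 gained 10.9 points (-0.756 to 25.9) and 16.1 points in the RNAi comparisons and was not listed for auxin.

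Introns 3, 15 and 37 were tested in every table and rose after SNW1 RNAi alone. Introns 11, 23, 34 and 35 rose there too and in no other comparison that listed them, but introns 11 and 35 were listed for SNW1 RNAi alone, intron 23 not for WBP11 RNAi and intron 34 not for auxin. Intron 23 (79 bp) went from 4.20% to 34.4%, and intron 35 (506 bp) from 8.52% to 29.2%. Intron 12 (478 bp), not listed for WBP11 RNAi, went from 24.7% to 73.9% (49.2 points, 32.4 to 62) and with auxin from 39.4% to 55.8% (16.4 points, -6.90 to 37.5). Introns 3, 11, 15, 34 and 37 gained 10.4 to 15.6 points. Beside the threshold, intron 37 was just inside at 10.4 points and intron 7 just outside at 9.12. After WBP11 RNAi these were intron 46 at 10.4 points and intron 51 at 7.93. With auxin, intron 48 was just inside at 11.6 points and intron 23 just outside at 8.59.

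Introns 4, 18, 29 and 50 were tested everywhere and called nowhere. Intron 50 (96 bp), between introns 47 and 51 that rose by 45.7 and 35.5 points with auxin, went from 5.44% to 3.27% there. After WBP11 and SNW1 RNAi it stood at 2.52% and 3.03% against 0.668%. Intron 49 had 9.39% against 8.11% with auxin. With intron 49, 12 introns tested in only 1 or 2 of the tables were called in none. Neighbouring introns of the same transcript thus had very different values in the same library.

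The WBP11 RNAi and SNW1 RNAi libraries share a control, so they were also set against each other directly. Of 27 NBEAL2 introns tested in both, 3 had an interval above 0 for WBP11 minus SNW1 (introns 5, 31 and 47), 5 had one below 0 (introns 25, 37, 38, 44 and 46) and 19 had one that included 0. The largest gaps were 32.6 points at intron 31 (15.2 to 48.4) and -30.7 points at intron 25 (-48 to -7.98). At intron 40 the difference was 3.32 points with an interval of -14.5 to 23.2. These intervals are not adjusted for the 27 introns compared. No such counts over all introns are given here, so these describe NBEAL2 alone and are not set against a background.

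The WBP11 RNAi and WBP11 auxin comparisons share no library. Among 25 introns tested in both, 15 rose after RNAi and 13 with auxin, and 11 rose in both, which is 73.3% of the first and 84.6% of the second. Over all 10391 introns tested in both, 1082 rose after RNAi and 2144 with auxin. The introns that rose in both were 66.8% of those after RNAi and 33.7% of those with auxin. The rank correlation of the differences was 0.64 over these 25 introns of 1 gene, which share transcripts and position. For SNW1 RNAi against WBP11 auxin it was 0.48 over 27 introns, and 10 introns rose in both, 66.7% of 15 and 71.4% of 14. Over all 13028 introns tested in both, 2749 rose after SNW1 RNAi and 2227 with auxin, and the shares were 42% and 51.8%. In both pairs a larger part of the NBEAL2 introns rose than of all introns. Overlap shares depend on that part, so they do not show closer agreement at NBEAL2. The baselines were related too. Over 29 introns tested with both controls, retention had a rank correlation of 0.80 between them. The auxin control was higher at 23 of the 29, with a median of 5.44% against 3.40%. The same count over all introns is not given here, so whether this baseline difference is particular to NBEAL2 was not tested.

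**Figure D2:**
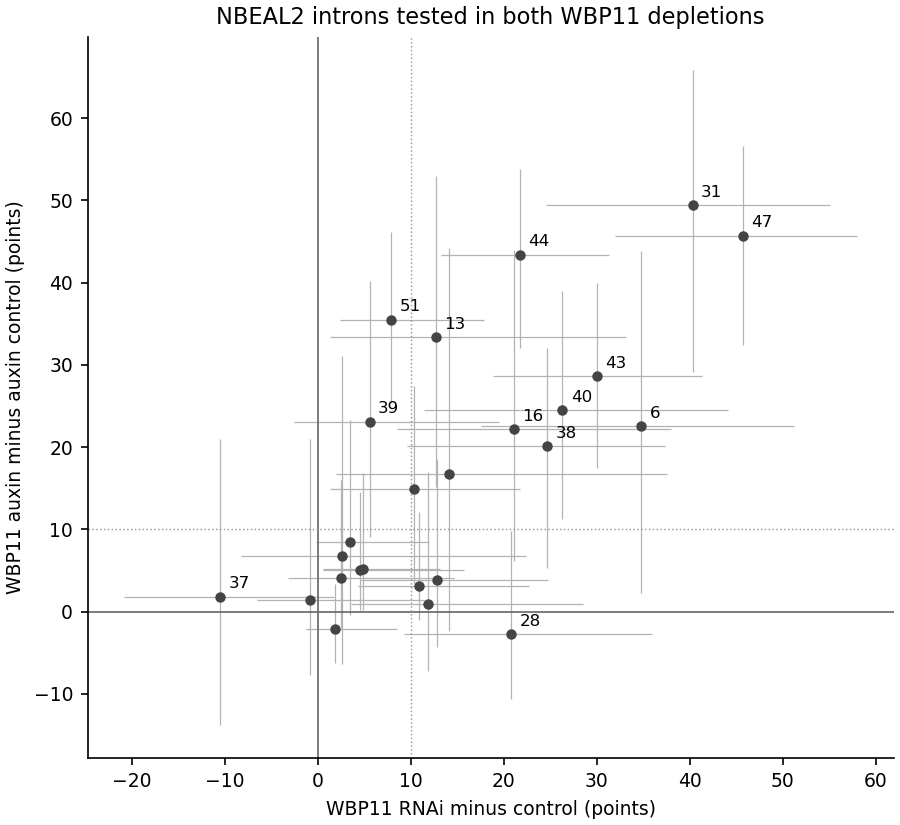
Change in retention in percentage points for the 25 NBEAL2 introns tested in both WBP11 depletions, WBP11 RNAi minus control on the x axis and WBP11 auxin minus auxin control on the y axis, with 95% intervals as bars, dotted lines at 10 points and intron numbers beside some points. Introns 31 and 47 lie highest in both, intron 51 is high with auxin only, and intron 28 is above 10 points after RNAi and below 0 with auxin.

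Spliced NBEAL2 RNA was lower in every depleted library. Summed over the tested introns, spliced reads went from 3808 to 1121 after WBP11 RNAi, from 4448 to 2238 after SNW1 RNAi and from 3955 to 1132 in the WBP11 auxin cells. Relative to the spliced reads of all tested introns in each table, this was 30.9% of control (28.9 to 33.1), 66.6% (63.2 to 70.1) and 24.8% (23.2 to 26.6). A read across several introns counts at each, so these intervals are too narrow. Every tested NBEAL2 intron was below its control by this measure, 30 of 30, 37 of 37 and 35 of 35. In bulk libraries, fewer cells that express the gene and less of its RNA per cell cannot be told apart.

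The lower spliced signal was not limited to introns that rose. At NBEAL2 introns that did not rise, spliced reads were at 35.3%, 75.6% and 31.8% of control, and at those that rose they were at 27.5%, 58.4% and 18.6%. Spliced reads are part of the ratio behind the call, so lower values at introns that rose are partly built in. Among genes with at least 10 tested introns and 100 control reads, the median gene stood at 78.3%, 109% and 89.2%. Genes below NBEAL2 numbered 13 of 189, 68 of 369 and 3 of 279. NBEAL2 was chosen by its retention differences, which use the same reads, so this rank is a description. Without scaling, NBEAL2 stood at 29.4%, 50.3% and 28.6%, so the direction did not depend on it.

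**Figure D3:**
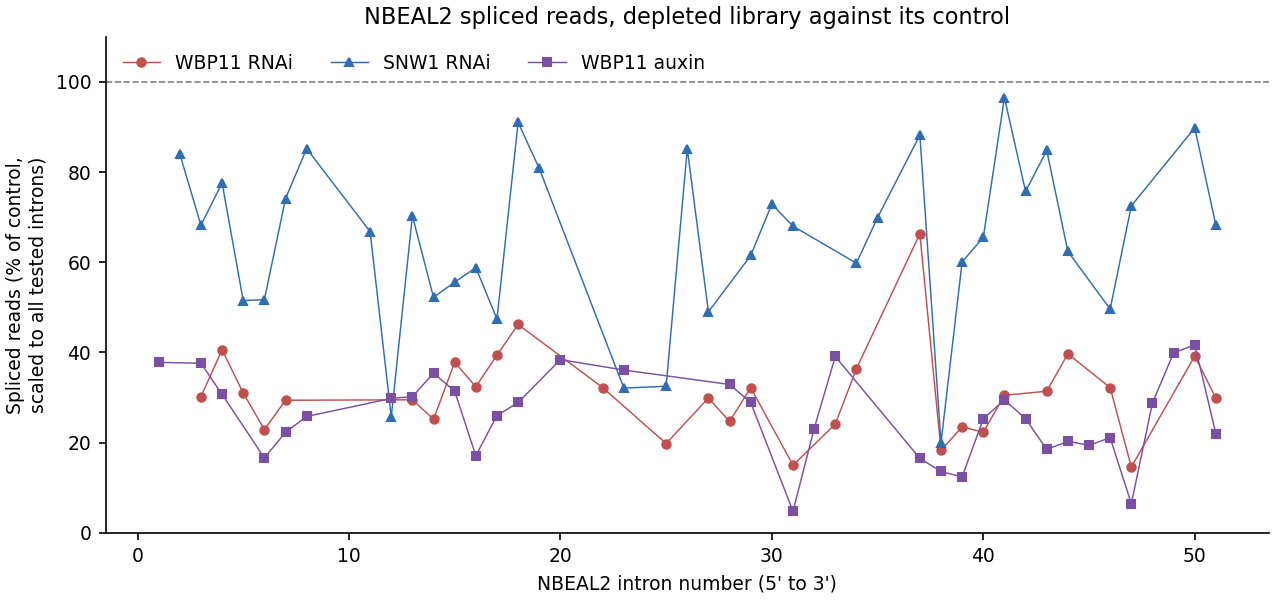
Spliced reads at each tested NBEAL2 intron in percent of control, scaled to all tested introns of the table (y axis), against intron number (x axis), with 1 line for each depletion and a dashed line at 100%. All points lie below 100%, from 14.6% to 66.3% for WBP11 RNAi, 20% to 96.5% for SNW1 RNAi and 4.78% to 41.7% for WBP11 auxin. The 4.78% is intron 31, with 7 spliced reads in the WBP11 auxin cells.

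A retention ratio can rise through more intron signal or through fewer spliced reads, and the depletions differed in this at NBEAL2. Intron depth summed over the introns that rose was at 128% of control after WBP11 RNAi, 278% after SNW1 RNAi and 77.1% in the WBP11 auxin cells, scaled as above. Unscaled, the values were 122%, 210% and 88.9%. Scaled depth was above control at 14 of the 18 introns that rose after WBP11 RNAi, at 20 of 20 after SNW1 RNAi and at 5 of 16 with auxin. Depth is part of the ratio behind the call. At introns that did not rise, scaled depth was at 72.1%, 272% and 42.2% of control. After SNW1 RNAi it was above control at all 37 tested introns, so the gain there was not particular to introns that rose. Intron 38 shows the contrast between the depletions, in values that are not scaled. Its depth was 79.5 in the control and 91.2 after SNW1 RNAi, while spliced reads went from 86 to 13. With auxin its depth went from 103 to 40.1 and its spliced reads from 83 to 13. After WBP11 RNAi its depth fell too, to 38.9, unlike the summed depth, with 15 spliced reads. Intron 44 gained depth in each depletion, unscaled from 7.42 to 24.8 and 62, and from 24.7 to 51.7. Depth plus spliced reads over all tested NBEAL2 introns, a measure of the gene's RNA whether spliced or not, was at 36.6%, 80.1% and 30.5% of control.

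The NBEAL2 introns that rose were shorter than the rest in 1 comparison and longer in the others. Their median length was 119 bp against 107.5 bp for those that did not rise after WBP11 RNAi, 156.5 against 98 bp after SNW1 RNAi, and 109.5 against 120 bp with auxin. The rank correlation of the difference with length was 0.096 over 30 introns, 0.15 over 37 and -0.053 over 35, and with intron number 0.093, 0.067 and 0.16. The median intron number of those that rose was 27.5 against 31 for the rest, 26 against 26, and 39.5 against 23 with auxin. Their median depth plus spliced reads in the control was 126 against 149, 118 against 127, and 177 against 102 with auxin. Introns over 100 and up to 200 bp are the gene's largest class. Of these, 9 of 13 rose after WBP11 RNAi, 8 of 14 after SNW1 RNAi and 6 of 14 with auxin, against 13.2%, 23.2% and 12.9% of all introns of that length. Up to 80 bp, 2 of 3, 3 of 4 and 3 of 4 NBEAL2 introns rose, against 24.3%, 43% and 64.7% of all introns. Over 80 and up to 100 bp, 4 of 8, 2 of 10 and 3 of 8 rose, against 12.6%, 20.4% and 29.3%. In this class NBEAL2 was thus near all introns after SNW1 RNAi, and its median difference with auxin was 1.14 points against 4.05.

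The level in the control differed between those that rose and the rest. NBEAL2 introns that rose had a median control retention of 4.71%, 6.66% and 12.9%, and the others 1.11%, 0.314% and 1.75%. Of the introns at 5% or more in the control, 9 of 12, 12 of 14 and 13 of 18 rose, against 21.9%, 48.1% and 28.8% of all introns at that level. Below 5%, 9 of 18, 8 of 23 and 3 of 17 rose, against 4.72%, 9.80% and 8.24%. The rank correlation of the difference with control retention was 0.34, 0.64 and 0.41. The control value enters both quantities.

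NSMAF, at ENSG00000035681.6 on the minus strand of chromosome 8, was called at a single intron. Its intron 4 of 30 (58635226 to 58635304, 79 bp, in the coding region) stood at 0% in the control, 28.4% after WBP11 RNAi and 2.35% after SNW1 RNAi, and at 0% in the auxin control against 44.6% in the WBP11 auxin cells. The values of 0 rest on 125 and 100 reads and allow up to 2.40% and 3%. The rises were 28.4 points (21.4 to 35.8) and 44.6 points (34.5 to 54.3), and both WBP11 libraries stood far above the other 3. Intron depth went from 0 to 46.8 after WBP11 RNAi and from 0 to 46.7 with auxin. Spliced reads at this intron were 116 against 125 after RNAi and 54 against 100 with auxin.

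The next NSMAF intron upstream, the 95 bp intron 3, was listed for SNW1 RNAi alone, at 1.33% against 0%. All other NSMAF values stayed within 10 points. They ran from -2.42 to 3.37 points after WBP11 RNAi, from -1.37 to 5.55 after SNW1 RNAi and from 0.656 to 6.66 with auxin. The largest of the last 2 ranges had intervals above 0, intron 25 after SNW1 RNAi (0.328 to 13.4) and intron 10 with auxin (1.49 to 14.1). Spliced reads of the gene were at 104% of control after WBP11 RNAi (95 to 113), 78.2% after SNW1 RNAi (71.3 to 85.8) and 98.2% with auxin (89.7 to 108).

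LRBA and WDFY3 had few listed introns. All 9 LRBA values, 3 in each table, lay between -2.56 and 3.93 points, with the largest at intron 9 with auxin (0.149% to 4.08%, interval of the difference -3.41 to 12.3). LRBA spliced reads were at 106%, 101% and 80.8% of control. WDFY3 had 1 rise among its 8 values, at the 83 bp intron 28 (chromosome 4, 84774982 to 84775064), the only WDFY3 intron of at most 100 bp. It went from 0%, at 20 reads that allow up to 15%, to 10.5% with auxin, the interval of the difference was -6.70 to 22.6, and the depleted library had a warning of uneven coverage. The other WDFY3 values lay between -0.249 and 2.56 points, and spliced reads were at 120%, 120% and 186% of control.

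Together the relatives of NBEAL2 rose at 1 of 14, 0 of 15 and 2 of 16 introns, with medians of 0.355, 1.33 and 2.28 points. Read against 9.07%, 16.6% and 13.8% of all introns, these counts are too small to set apart from the background.

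**Figure D4:**
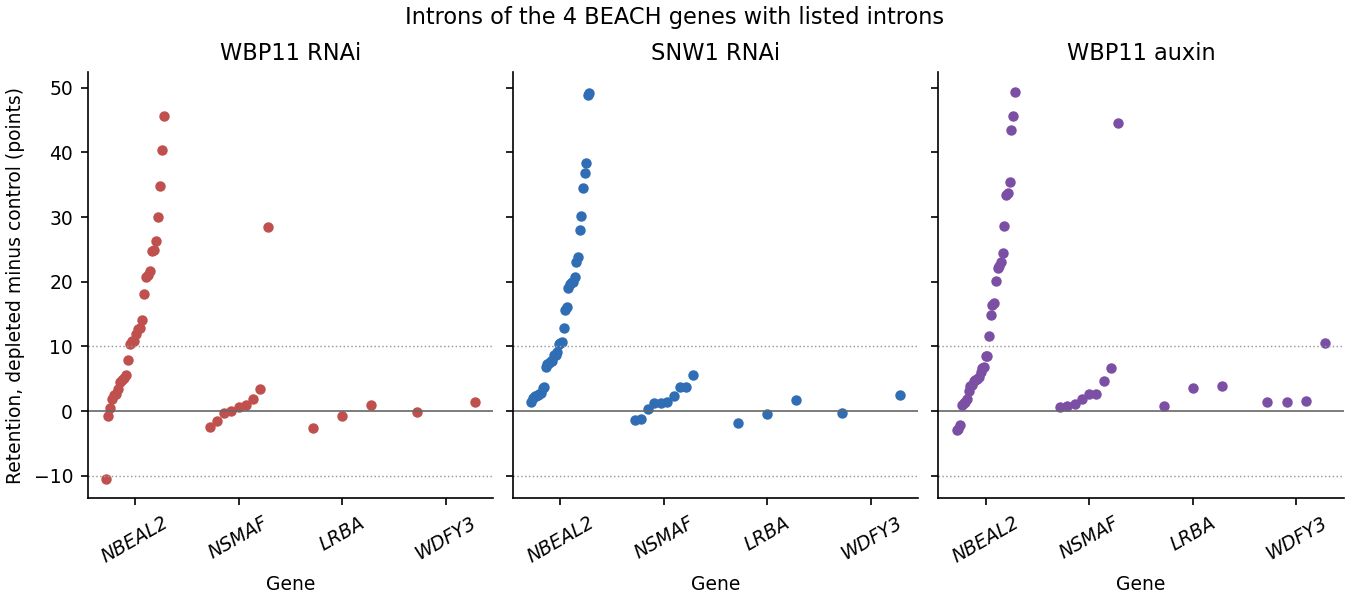
Change in retention in percentage points (y axis) for each tested intron of NBEAL2, NSMAF, LRBA and WDFY3 (x axis, introns of a gene ordered by value), with 1 panel for each depletion and dotted lines at 10 points in both directions. NBEAL2 spans up to 49.4 points, and outside it only NSMAF intron 4 and, with auxin, WDFY3 intron 28 pass 10 points.

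A list of 49 other genes of lysosome-related organelles and partners of BEACH proteins did not share the NBEAL2 counts. After WBP11 RNAi 7 of 105 tested introns rose and 1 fell (6.67% higher, median 0.647 points). After SNW1 RNAi 21 of 138 rose (15.2%, 3.14 points), and with auxin 16 of 125 (12.8%, 1.19 points), and none fell in either. These shares are near those of all introns. The largest rise in each RNAi comparison was in VPS8, a subunit of the endosomal CORVET complex, from 8.51% to 41.5% after WBP11 RNAi and to 51.6% after SNW1 RNAi at an intron that overlaps an annotated exon. These VPS8 rises were 32.9 points (9.39 to 56.9) and 43.1 points (15.5 to 67.6). They rest on a depleted depth plus spliced reads of only 16.1 and 12.4. SMPD2, a neutral sphingomyelinase, went from 6.12% to 37.1% after WBP11 RNAi. VPS33B, which acts in alpha granule formation as NBEAL2 does, went from 5.13% to 47.6% after SNW1 RNAi (42.4 points, 25.1 to 58.3). With auxin, UNC13D, a priming factor of lytic granules, went from 14.7% to 72.4% at a 75 bp intron, and AP3B1, a subunit of the AP-3 adaptor, from 0% (up to 5.08% allowed) to 50.3% at an 86 bp intron. The 3 further human BEACH genes NBEA, WDFY4 and WDR81 had no listed intron.

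Among 144 genes with at least 10 tested introns in each table, NBEAL2 had a share of introns higher of 60%, 54.1% and 45.7%, against medians of 14.8%, 28.3% and 22.9%. A larger share was seen in 5, 22 and 20 genes. Among the genes nearest to NBEAL2 in the 3 shares were MAP3K6, ABCC3, CUL9 and EML3, at distances of 17.7 to 24.1 points where the median gene was at 56.4. MAP3K6, a kinase of the MAP kinase cascade, had 6 of 14, 11 of 20 and 7 of 14 introns higher. ABCC3, an ABC transporter of organic anions, had 6 of 14, 9 of 16 and 6 of 18. The RNAi shares rest on a common control library.

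**Figure D5:**
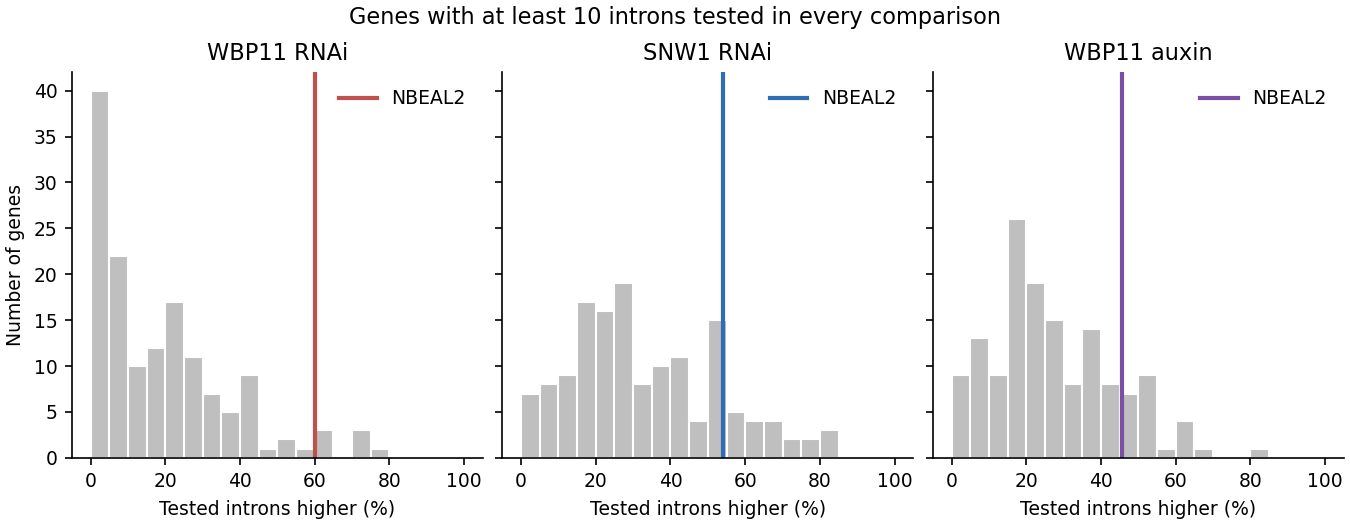
Number of genes (y axis) by the percent of their tested introns that were higher (x axis) for the 144 genes with at least 10 tested introns in each table, with 1 panel for each depletion and NBEAL2 as a vertical line. NBEAL2 lies at 60% after WBP11 RNAi, with 5 genes above it, and at 54.1% and 45.7% in the other panels, with 22 and 20 above it.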

How the data were processed

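Per the file headers, the 3 tables are IRFinder comparisons of STAR genome alignments to hg38. The submitters' processing notes also name RSEM and bedtools. No version is stated in the headers or notes. The authors deposited, per intron and library, the retention ratio as a fraction, the intron depth as a coverage signal and the spliced reads as a count, none scaled between libraries. The deposited p-values (a score column, since 33 marks no test) compare the reads of 2 libraries. Of 294 ratios of the members, 71 differed by over 0.001 from depth over depth plus spliced reads (up to 9.82 points). NBEAL2 introns 31 and 47 in the WBP11 auxin cells were among them. Intron 31 had a depth of 18.6, 7 spliced reads and a ratio of 62.8%, and intron 47 had 51.2, 13 and 71.9%. Deposited ratios were used. The RNAi control was identical at all 13412 introns in both RNAi tables and counted as 1 library.

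Introns were matched to GENCODE release 29 for numbers and coding position, and sequences came from its transcripts. No genome sequence was used, so planned splice site scores were not computed. Python 3.11.15, pandas 2.3.3 and scipy 1.17.1 computed differences with Newcombe intervals. A depth minimum of 10 left out 561, 711 and 643 introns, none of the members. The call rule was tested on simulated data. Members, lists and rules were chosen with earlier results of these data known. Named introns are those called in any comparison, the introns beside the threshold, and otherwise the largest rise per gene. NBEAL2 introns 4, 18, 29, 49 and 50 and NSMAF introns 3, 10 and 25 were named after their values were seen. Up to 2 genes per comparison came from the organelle list, and 5 genes by nearest shares, of which 1 is not reported here.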

Additional observations from a re-analysis of the deposited data

Results flagged for a closer look

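NBEAL2 intron 37 (101 bp, chromosome 3, 47004394 to 47004494) was called in opposite directions in the RNAi comparisons. It went from 20.9% to 10.5% after WBP11 RNAi (-10.5 points, 95% interval -20.8 to 1.80) and to 31.3% after SNW1 RNAi (10.4 points, -2.11 to 23). With auxin it had 30.9% against 29.1%. Both intervals include 0, each group had 1 library, and both differences use the same control value. The RNAi libraries themselves differed by -20.9 points (-32.9 to -7.16), WBP11 minus SNW1, and no test across replicates was possible.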

How the results depend on the processing

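Each count of introns that rose was recomputed under 8 other settings, all planned. No paired analysis was possible because each group had 1 library and the labels give no replicate numbers. For the same reason no replicate could be left out. A difference of at least 20 points left 10, 12 and 12 NBEAL2 introns for WBP11 RNAi, SNW1 RNAi and WBP11 auxin, against 3.53%, 6.49% and 6.38% of all introns. Without introns that had a warning, 11 of 16, 10 of 18 and 7 of 17 remained, fewer because fewer were tested, against 8.96%, 16.6% and 15.9% of all introns. A depth minimum of 30 left 10 of 21 for auxin, against 12.9%. With 5 points, no minimum, exon overlaps left out, the interval above 0 or an adjusted deposited p, NBEAL2 counts stayed within 1.5 times. At 5 points they were 21 of 30, 28 of 37 and 23 of 35, against 17.4%, 32.2% and 24.7% of all introns. From 10 to 5 points the share of all introns grew more in proportion than the NBEAL2 counts. For the other genes, SNW1 RNAi gave 1 intron at 5 points, and auxin gave 1 at 20 points, at a minimum of 30, without warnings, with the interval above 0 and with an adjusted deposited p. Depth limits NBEAL2 with auxin most, where a ratio rests on as few as 13 reads.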

Other observations

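UNC13D, chosen here after its values were seen, is a lytic granule priming factor of the fixed organelle list with a 75 bp intron (chromosome 17, 75839943 to 75840017) that rose in every depletion. It stood at 2.79% in the control, 17.5% after WBP11 RNAi and 25.3% after SNW1 RNAi, and went from 14.7% to 72.4% with auxin. The differences were 14.8 points (9.53 to 20.9), 22.5 points (15.3 to 30.9) and 57.7 points (48.5 to 65.4). A 73 bp intron of the same gene (75831170 to 75831242) went from 10.5% to 64% with auxin. Of all introns up to 80 bp, 24.3% rose after WBP11 RNAi, 43% after SNW1 RNAi and 64.7% with auxin. The shares of all tested UNC13D introns that rose were 0.154, 0.286 and 0.385. The 86 bp intron of AP3B1 rose in both WBP11 depletions, to 10.9% from 0.539% after RNAi and to 50.3% from 0% with auxin, where the 0% rests on 59 reads.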
